A study of Homo sapiens with 4 samples.

Results

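The genes described here encode the DNA replication machinery: the proteins that mark origins, load and activate the replicative helicase, prime and copy both strands, and join the lagging strand. The 50 genes were taken from a list by name (licensing factors, helicase, polymerases, clamp and their partners), and all 50 were found by Ensembl identifier among the 64252 genes of the count table. The rule uses names only, but the list was drawn up with earlier results of these data known. RNA was sequenced from cells labelled NB4, an acute promyelocytic leukemia line that carries the PML-RARa fusion. In 2 libraries the cells had been treated for 24 h with 8 µM dBET1, a degrader that joins a ligand of the BET bromodomains to a ligand of the ubiquitin ligase adaptor CRBN. In the other 2 libraries they had received DMSO, the solvent, for 24 h. Within a group the libraries are numbered 1 and 2, and nothing in the labels says whether they came from separate cultures, so p-values measure only the spread between these libraries, which may be technical. In what follows, values are given for replicate 1 and then replicate 2.

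The libraries held 28019956 to 34685645 counts each, and between 24589 and 28356 genes had at least 1 count. The marker genes did not match the label NB4 throughout. Of the 9 granulocyte markers, 6 were tested, their summed level was 14.1 and 15.5 CPM (counts scaled to a library total of 1000000) in DMSO and 20.8 and 18.3 CPM in dBET1, and the azurophil granule genes ELANE and CTSG were at 0 counts in every library. CD33 held most of that sum, and 2 of the 6 tested granulocyte markers were higher after dBET1: ITGAM, an integrin of mature myeloid cells, had 22 and 9 counts in DMSO and 170 and 152 in dBET1 (log2 fold change 3.39, standard error 0.365, edgeR adjusted p = 1.88e-04), and MPO, a granule enzyme of promyelocytes, had 0 counts in both DMSO libraries and 22 and 10 in dBET1. The 11 erythroid markers were abundant and summed to 6400 and 7746 CPM in DMSO and to 3795 and 3707 CPM in dBET1. Of these 11, 10 were lower after dBET1. At an adjusted p under 0.05, 27.6% of all tested genes were lower and 28% were higher. Among tested genes with a mean of at least 10 CPM, 42.9% were lower. The other 4 tested granulocyte markers did not pass, with log2 fold changes of 0.44 for AZU1, -0.01 for CD33, -0.27 for CSF3R and -1.11 for CEBPE. The erythroid markers moved with the treatment in the same direction as the replication genes, and the granulocyte markers had no common direction. The part of these markers in the results below was not tested.

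Replication begins in G1, when the origin recognition complex (ORC), CDC6 and CDT1 load MCM2 to MCM7 onto DNA as an inactive double ring. In S phase the kinases CDC7-DBF4 and CDK help CDC45 and the GINS complex to join each ring, which makes the active helicase. Polymerase alpha-primase then lays down primers, polymerase epsilon extends the leading strand, and polymerase delta, held by the sliding clamp PCNA, copies the lagging strand. Many of these genes are textbook targets of E2F transcription factors, and most are transcribed in cycling cells. In bulk RNA, fewer cells in S phase and less of the RNA in each cell cannot be told apart.

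After dBET1 most of the replication genes were lower. In edgeR's quasi-likelihood test, with p-values adjusted over 17971 genes by the Benjamini-Hochberg method, 36 of the 50 genes fell at an adjusted p under 0.05, 2 rose and 12 did not pass. Among all tested genes 27.6% were lower and 28% were higher. All 50 replication genes had a mean of at least 10 CPM, and among the 9724 tested genes at that level 42.9% were lower and 22% were higher. The median log2 fold change of the replication genes was -0.58, against -0.19 over those abundant genes and 0.05 over all tested genes. The genes that passed the test together with a change of more than 1 on the log2 scale were CDC6, MCM3, MCM7, CDC45, POLD2, POLE2 and PCNA (7 lower) and POLD4 (1 higher). The same pair of criteria held for 8.54% (lower) and 16.9% (higher) of all tested genes, and for 10.3% (lower) and 5.31% (higher) of the abundant ones. The second gene that rose was DNA2.

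The 2 groups did not overlap for most of these genes, as was the case for most tested genes. In CPM, both DMSO libraries were above both dBET1 libraries for 40 of the 50 genes, a pattern found in 37.4% of all tested genes. Both dBET1 libraries were above both DMSO libraries for 3 genes (POLD4, DNA2 and TICRR), a pattern found in 41.9% of all tested genes. The groups overlapped for the other 7, which were ORC4, ORC6, PRIM2, POLE, RFC1, RFC5 and RPA3. On a scale that also divides by gene length (TPM, a share scaled to 1000000), the 50 genes summed to 6703 and 6288 TPM in DMSO and to 4205 and 4314 TPM in dBET1. With 2 against 2 libraries an exact permutation test of a single value cannot give a two-sided p below 0.333, so sums and ratios are given without a test. Scaling by total counts alone moved the median of all tested genes from 0.05 to 0.26 and the median of the replication genes to -0.37. A change of scaling shifts all genes by nearly the same amount, so the distance between these medians was bound to stay at -0.63. It was -0.89 with DESeq2, -0.89 with no filter on low counts and -0.53 with at least 10 counts in every library. Under total-count scaling 3 rather than 7 genes passed both criteria downward. Among all calls past both criteria 80.2% were then higher, against 66.4%.

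**Figure D1:**
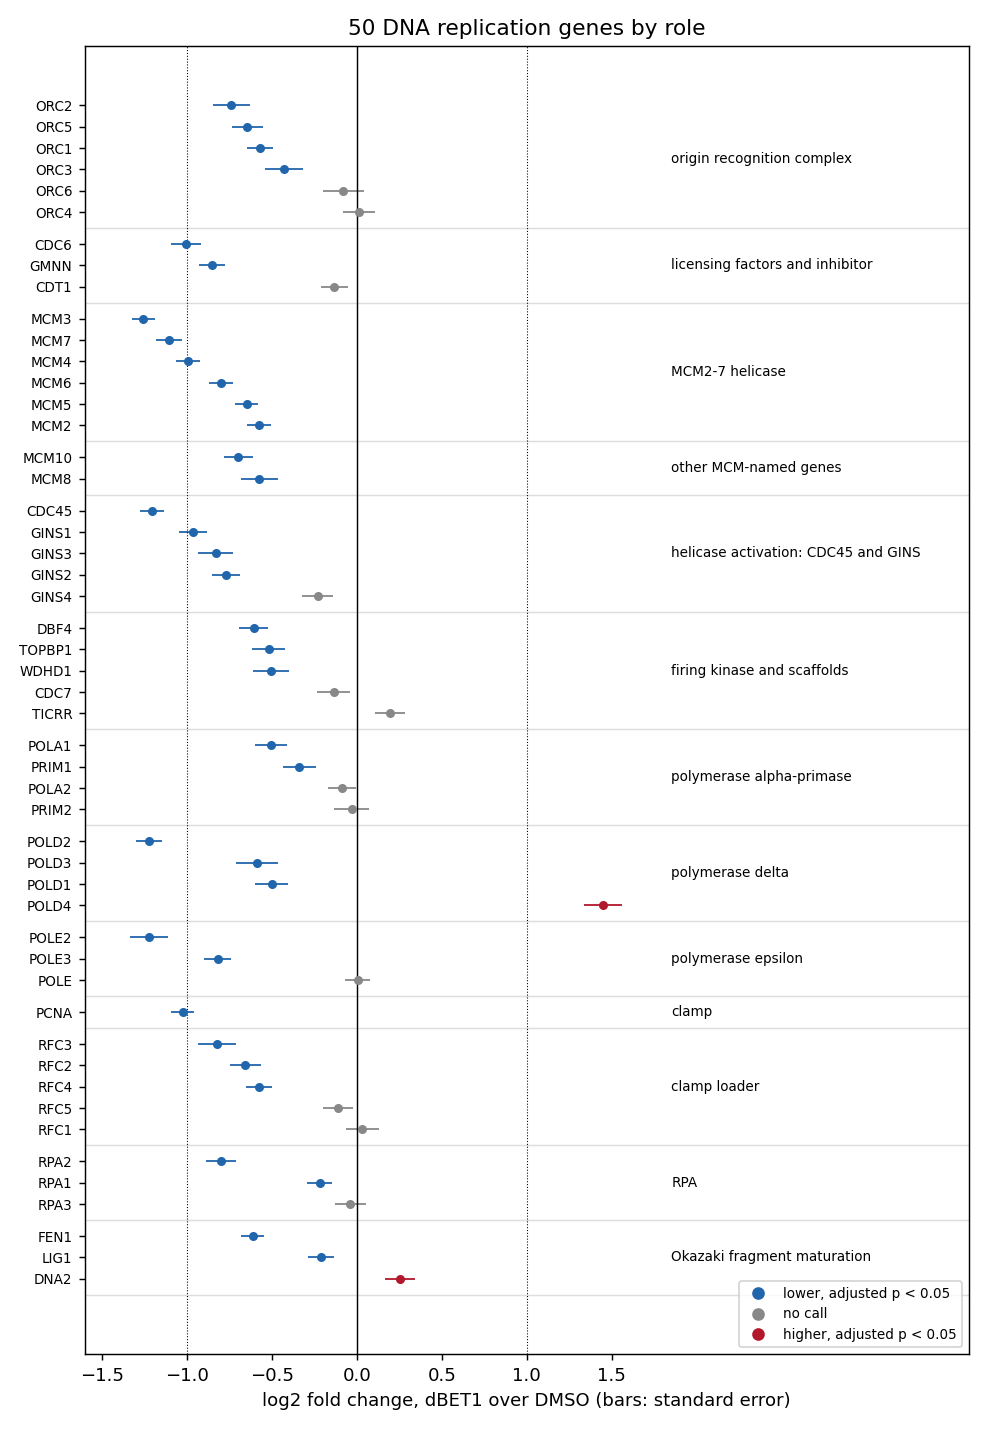
Log2 fold change of each of the 50 replication genes (dBET1 over DMSO, horizontal axis), grouped by role, with bars for the standard error from edgeR; colors mark genes that were lower, higher or not called at an adjusted p under 0.05. Most points lie left of 0, POLD4 lies far to the right at 1.45, and each role except MCM2-7, the other MCM-named genes and the clamp holds at least 1 gene that was not lower.

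The promoter sequences of these genes were examined for words that E2F factors are known to bind. A RefSeq window of 300 bases (250 before and 50 after the start site, GRCh38.p14) was held for 43 of the 50 genes, in 57 windows. The words searched on both strands were TTTCCCGC, TTTCGCGC, TTTGCCGC and TTTGGCGC, and they can overlap each other on opposite strands. At least 1 of them was present in 21 of the 43 genes (48.8%), against 6.40% of 10976 tested genes with a window, 7.42% of the abundant tested genes and 3.99% of all 27305 genes in the promoter table. Stretches from 4 genes that fell are shown first, with the words in capitals:
MCM6, chr2:135876496-135876621, minus strand: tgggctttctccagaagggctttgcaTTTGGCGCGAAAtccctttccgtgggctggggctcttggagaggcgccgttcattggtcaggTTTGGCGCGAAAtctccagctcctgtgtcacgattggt
MCM3, chr6:52284883-52284942, minus strand: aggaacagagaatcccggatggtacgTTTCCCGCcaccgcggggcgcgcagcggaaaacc
PCNA, chr20:5126648-5126707, minus strand: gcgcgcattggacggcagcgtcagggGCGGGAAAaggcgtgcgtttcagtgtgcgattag
RFC3, chr13:33818068-33818127, plus strand: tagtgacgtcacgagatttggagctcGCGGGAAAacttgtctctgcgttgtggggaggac

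In MCM6, 4 words form a pair of sites, each read on both strands, whose ends lie 144, 140, 82 and 78 bases before the start site. In MCM3 the word shown lay 166 bases before the start, and a second, TTTCGCGC, did not lie wholly before the start and is not shown. The distance was in PCNA 51 bases and in RFC3 47 bases. The words were not limited to genes that fell. They were found in 17 of 32 lower genes with a window (53.1%) and in 4 of 10 genes that did not pass the test (40%), namely CDC7, POLA2, POLE and CDT1. Stretches from 3 of these, whose log2 fold changes lay between -0.13 and 0.00, are shown for comparison:
CDT1, chr16:88803728-88803787, plus strand: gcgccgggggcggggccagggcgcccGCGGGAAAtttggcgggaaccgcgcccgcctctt
POLE, chr12:132687343-132687386, minus strand: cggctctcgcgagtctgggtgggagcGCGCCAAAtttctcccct
POLA2, chr11:65261883-65261942, plus strand: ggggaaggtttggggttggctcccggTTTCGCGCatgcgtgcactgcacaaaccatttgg

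These words lay 27, 10 and 45 bases before the start sites of CDT1, POLE and POLA2. Neither of the windows of POLD4, the gene that rose most, held such a word. The 250 bases before one POLD4 start site are shown because it went against the rest of the list, with each copy of the CCAAT box (CCAAT, or ATTGG on the other strand) in capitals:
POLD4, chr11:67353597-67353846, minus strand: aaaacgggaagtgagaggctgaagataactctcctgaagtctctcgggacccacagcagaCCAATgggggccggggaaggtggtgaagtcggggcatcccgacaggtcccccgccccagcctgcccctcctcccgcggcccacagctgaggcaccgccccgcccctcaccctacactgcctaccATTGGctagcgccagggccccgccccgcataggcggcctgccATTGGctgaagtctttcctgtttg

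The CCAAT word was common in the whole list, with 24 of 43 genes (55.8%) against 42.6% of tested genes. The E-box CACGTG, a word bound by MYC-MAX, was present in 8 of 43 genes (18.6%) against 12.5% of tested genes. CDC45, which fell, had no E2F word in any of its 3 windows, and DNA2 had no window in the table. A matching word describes the sequence and does not show that a factor was bound.

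**Figure D2:**
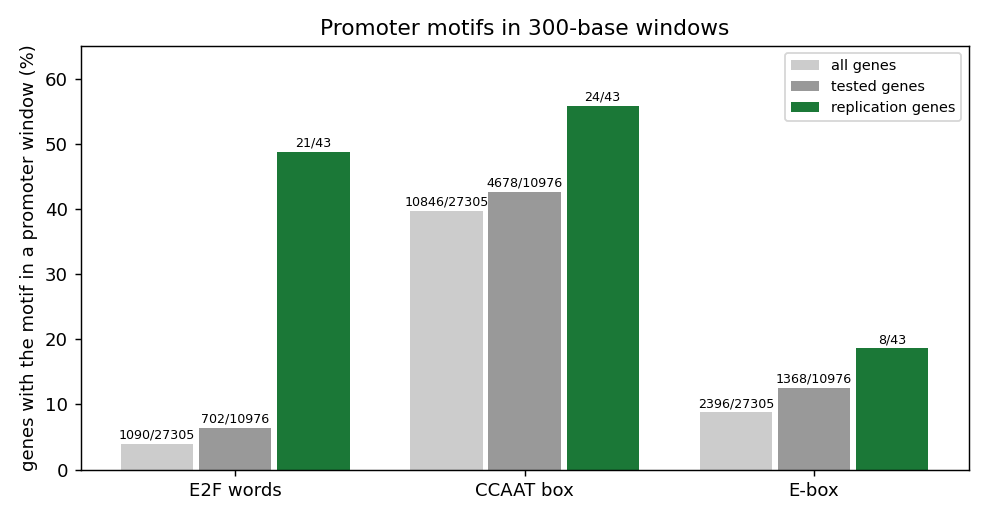
Share of genes (percent) whose promoter window of 300 bases held an E2F word, a CCAAT box or the E-box, for the replication genes, the tested genes and all genes of the promoter table; the numbers above the bars are genes with the word over genes with a window. The bars for E2F words differ most, at 48.8% of the replication genes against 6.40% of tested genes.

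Most genes of the origin recognition complex were lower. Of the 6 ORC genes, 4 fell (ORC1, ORC2, ORC3 and ORC5), against 42.9% of abundant tested genes, and 2 did not pass the test. The median log2 fold change of the 6 was -0.50. ORC2, a core subunit, was the lowest of them, with 49.5 and 42.6 CPM in DMSO and 28.5 and 26.8 CPM in dBET1 (log2 fold change -0.74, standard error 0.110, edgeR adjusted p = 9.51e-04). ORC1, the subunit whose level is known to follow the cell cycle, fell by less (log2 fold change -0.57, standard error 0.0768, edgeR adjusted p = 5.53e-04). ORC5, a core subunit that binds ATP, lay between ORC2 and ORC1 (log2 fold change -0.64, standard error 0.0919, edgeR adjusted p = 7.50e-04). The order of these genes was not tested, and without DMSO replicate 1 ORC5 (-0.70) lay below ORC2 (-0.65). ORC4, a core subunit, had 65.6 and 59.0 CPM in DMSO and 60.3 and 65.5 CPM in dBET1, so its groups overlapped (log2 fold change 0.01, standard error 0.0950, edgeR adjusted p = 0.915). It shares 431 exonic bases on the opposite strand with ACVR2A, which had 177 and 164 counts in DMSO and 282 and 394 in dBET1, and if strand was not used its value is uncertain. ORC6, which joins the core loosely, did not pass either (log2 fold change -0.08, standard error 0.122, edgeR adjusted p = 0.603). With all-exon lengths ORC1 gave the most TPM of the complex in every library, 41.3% and 41.8% of the summed ORC level in DMSO and 38.2% and 38.1% in dBET1. With canonical lengths its share was 27.4% and 27.3% in DMSO and 24.1% and 24.5% in dBET1, where ORC6 had more (32.2% and 27.8%). The call for ORC3 (log2 fold change -0.43, standard error 0.111, edgeR adjusted p = 0.0123) was lost under total-count scaling and when either dBET1 library was left out, with adjusted p of 0.145, 0.0614 and 0.0770 by edgeR's quasi-likelihood test.

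The licensing factors separated from one another. CDC6 (ENSG00000094804, chr17:40287879-40304657, plus strand), the ATPase that brings the MCM ring to ORC, was measured at 161 and 154 CPM in DMSO and 83.4 and 73.4 CPM in dBET1. It fell to 0.499 of the DMSO level (log2 fold change -1.004, standard error 0.0891, edgeR adjusted p = 7.50e-05), at the edge of the fold limit. The log2 fold change of CDC6 was -0.79 under total-count scaling and -0.93 with at least 10 counts in every library. It was -0.997 without DMSO replicate 1 and -0.93 without dBET1 replicate 2. CDT1, the chaperone that carries the ring, was at 263 and 295 CPM in DMSO and 259.8 and 249.5 CPM in dBET1 and did not pass the test (log2 fold change -0.13, standard error 0.0807, edgeR adjusted p = 0.196). GMNN encodes geminin, the protein that binds CDT1 and blocks a second round of loading. Its level went from 141 and 149 CPM to 80.8 and 79.8 CPM (log2 fold change -0.85, standard error 0.0775, edgeR adjusted p = 8.27e-05). The ratio of CDT1 to GMNN in TPM was 1.68 and 1.77 in DMSO and 2.89 and 2.81 in dBET1, a 1.65-fold higher ratio. With the lengths of the canonical transcripts in place of all exons, the ratio was 0.887 and 0.936 in DMSO and 1.52 and 1.48 in dBET1, so which gene of the pair had the higher level in DMSO depends on the length used. Without DMSO replicate 1, CDT1 itself passed as lower (-0.24, edgeR adjusted p = 0.00407).

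All 6 genes of the MCM2 to MCM7 ring fell, against 42.9% of abundant tested genes, by a median of -0.90 on the log2 scale. For each of the 6, both DMSO libraries lay above both dBET1 libraries, as in 37.4% of all tested genes. The ring is the motor of the helicase, with 1 copy of each protein. MCM3 (ENSG00000112118, chr6:52264014-52284881, minus strand) was lowest, with 549.7 and 538 CPM in DMSO and 226 and 229.6 CPM in dBET1 (log2 fold change -1.26, standard error 0.0679, edgeR adjusted p = 1.28e-05). MCM7 (ENSG00000166508, chr7:100092233-100101940, minus strand) followed, with 801 and 875 CPM and 398 and 379.5 CPM (log2 fold change -1.11, standard error 0.0758, edgeR adjusted p = 2.66e-05). In mean CPM these were the subunits that more than halved. Under total-count scaling MCM3 still did (log2 fold change -1.05) and MCM7 did not (-0.90). MCM4 had 714 and 674 CPM in DMSO and 345 and 353 CPM in dBET1, at the edge of the fold limit (log2 fold change -0.99, standard error 0.0698, edgeR adjusted p = 2.87e-05). MCM6 had 457 and 437 CPM and 263 and 251 CPM (log2 fold change -0.80, standard error 0.0709, edgeR adjusted p = 7.50e-05). The smaller changes were in MCM5, with 272 and 267 CPM and 174 and 170.2 CPM (log2 fold change -0.65, standard error 0.0691, edgeR adjusted p = 1.77e-04), and in MCM2, with 313 and 308 CPM and 213 and 204 CPM (log2 fold change -0.58, standard error 0.0694, edgeR adjusted p = 3.16e-04).

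The 6 subunits were unequal in RNA although the ring holds them in equal number. MCM7 had the highest level per length, 509 ± 8.74 TPM in DMSO and 256 ± 3.53 TPM in dBET1 (mean ± SD, n = 2). MCM5 had the lowest, 112 ± 6.67 TPM and 77.2 ± 0.403 TPM. MCM7 and MCM5 kept these places with canonical transcript lengths, while the order of the others depended on the length used. The gap between MCM7 and MCM2 was smaller after dBET1: MCM7 was 2.43 and 2.70 times MCM2 in DMSO and 1.78 and 1.77 times MCM2 in dBET1, in TPM. MCM8 and MCM10 carry the MCM name for different work, MCM8 in repair with MCM9 and MCM10 in activating the helicase. Both fell, MCM10 from 123 and 112 CPM to 71.5 and 73.8 CPM (log2 fold change -0.70, standard error 0.0842, edgeR adjusted p = 3.21e-04) and MCM8 from 114 and 92.5 CPM to 69.5 and 69.1 CPM (log2 fold change -0.58, standard error 0.109, edgeR adjusted p = 0.00300).

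**Figure D3:**
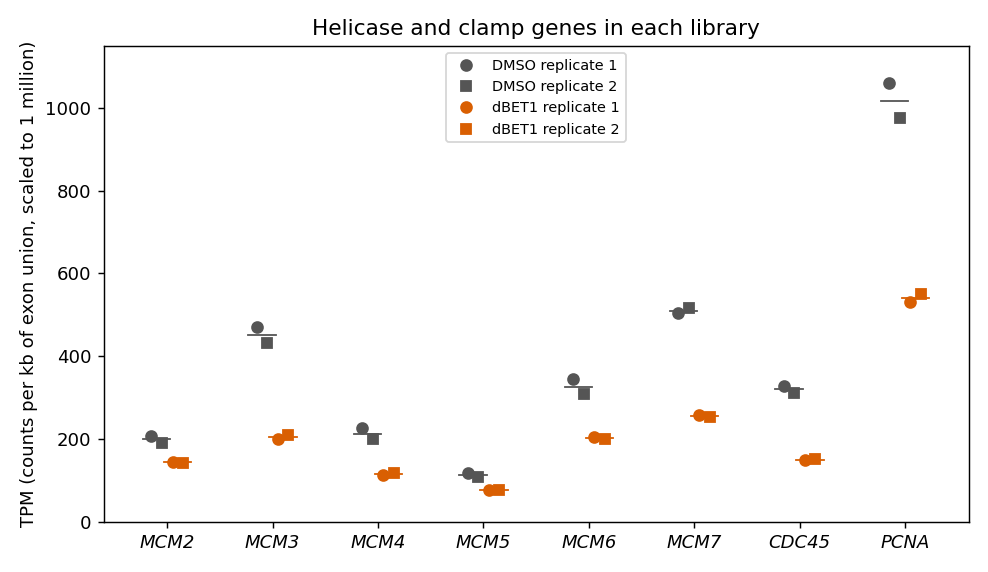
TPM, from the length of all exons, in each of the 4 libraries (points; horizontal lines are group means) for the MCM2 to MCM7 genes, CDC45 and PCNA. In every one of the 8 genes shown both dBET1 libraries lie below both DMSO libraries, and PCNA is the highest. In CPM that pattern was found in 37.4% of all tested genes.

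The factors that switch the ring on were lower, with 4 of 5 called, against 42.9% of abundant tested genes. The median log2 fold change of the 5 was -0.83. CDC45 (ENSG00000093009, chr22:19479457-19520612, plus strand), which joins the ring at each fork, had 314 and 318 CPM in DMSO and 138 and 136 CPM in dBET1 (log2 fold change -1.21, standard error 0.0692, edgeR adjusted p = 1.44e-05). The GINS complex holds CDC45 on the ring and has 4 subunits. GINS1 (log2 fold change -0.96, standard error 0.0807, edgeR adjusted p = 5.85e-05), GINS2 (log2 fold change -0.77, standard error 0.0812, edgeR adjusted p = 1.68e-04) and GINS3 (log2 fold change -0.83, standard error 0.102, edgeR adjusted p = 3.45e-04) fell. GINS2 shares 7 exonic bases on the opposite strand with GSE1, an abundant gene. GINS4 had 79.4 and 73.8 CPM in DMSO and 68.6 and 61.9 CPM in dBET1, and although its groups did not overlap, it did not pass the test (log2 fold change -0.23, standard error 0.0921, edgeR adjusted p = 0.0637). Without DMSO replicate 2, GINS4 did pass (-0.31, edgeR adjusted p = 0.00882). CDC45 made up 59.9% and 59.8% of the summed TPM of these 5 genes in DMSO and 51.1% and 50.7% in dBET1, and the share of GINS4 went from 8.29% and 7.59% to 13.9% and 12.6%.

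Among the kinase and the scaffolds that fire origins, 3 of 5 fell, against 42.9% of abundant tested genes, with a median of -0.50. DBF4, the activator of the CDC7 kinase, had 68.0 and 69.8 CPM in DMSO and 43.8 and 46.6 CPM in dBET1 (log2 fold change -0.61, standard error 0.0867, edgeR adjusted p = 7.44e-04). DBF4 shares 145 exonic bases on the opposite strand with SLC25A40, which had 769 and 526 counts in DMSO and 643 and 648 in dBET1. If strand was not used, the value of DBF4 is uncertain. CDC7, the kinase itself, did not pass (log2 fold change -0.14, standard error 0.0960, edgeR adjusted p = 0.254). The ratio of CDC7 to DBF4 in TPM was 0.838 and 0.751 in DMSO and 1.17 and 1.04 in dBET1. With canonical lengths it was 0.746 and 0.668 in DMSO and 1.04 and 0.926 in dBET1. The ratio was higher after dBET1 with either length, but which gene had the higher level in dBET1 replicate 2 depends on the length. TOPBP1, the scaffold that brings GINS to the ring, fell (log2 fold change -0.52, standard error 0.0985, edgeR adjusted p = 0.00297), as did WDHD1, which links the helicase to polymerase alpha (log2 fold change -0.50, standard error 0.105, edgeR adjusted p = 0.00467). TICRR, the partner of TOPBP1 at origins, had 55.7 and 51.3 CPM in DMSO and 60.5 and 62.1 CPM in dBET1 and did not pass (log2 fold change 0.20, standard error 0.0883, edgeR adjusted p = 0.0935). TICRR passed as higher under total-count scaling, with a filter of at least 10 counts in every library, and without DMSO replicate 1, at edgeR adjusted p of 0.00764, 0.0316 and 0.0299. The call for WDHD1 was lost under total-count scaling (edgeR adjusted p = 0.0533).

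In polymerase alpha-primase, 2 of 4 subunits were called lower, against 42.9% of abundant tested genes. The catalytic subunit POLA1 went from 72.2 and 63.6 CPM to 47.9 and 47.8 CPM (log2 fold change -0.50, standard error 0.0953, edgeR adjusted p = 0.00294), and POLA2, its accessory subunit, did not pass (log2 fold change -0.09, standard error 0.0814, edgeR adjusted p = 0.395). PRIM1, the catalytic primase, was called lower (log2 fold change -0.34, standard error 0.0972, edgeR adjusted p = 0.0193), but it shares 139 exonic bases on the same strand with NACA, which had 28185 and 24426 counts in DMSO and 20347 and 20944 in dBET1, so its value is uncertain. The PRIM1 call was also lost without either dBET1 library and under total-count scaling (edgeR adjusted p = 0.117, 0.120 and 0.320). PRIM2, the large primase subunit, had 43.9 and 41.8 CPM in DMSO and 39.1 and 44.9 CPM in dBET1, which overlap (log2 fold change -0.03, standard error 0.103, edgeR adjusted p = 0.827).

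In polymerase delta, 3 subunits fell and 1 rose, against 42.9% lower and 22% higher among abundant tested genes. POLD1, the catalytic subunit, had 216 and 258 CPM in DMSO and 162 and 174 CPM in dBET1 (log2 fold change -0.50, standard error 0.0985, edgeR adjusted p = 0.00353). POLD2 (ENSG00000106628, chr7:44114631-44124358, minus strand), the subunit that ties the others together, had 284 and 303 CPM and 125 and 126 CPM (log2 fold change -1.22, standard error 0.0739, edgeR adjusted p = 1.66e-05). POLD3, which carries a PCNA-binding motif, had 37.0 and 32.9 CPM and 25.1 and 21.5 CPM (log2 fold change -0.59, standard error 0.124, edgeR adjusted p = 0.00493), and it shares 123 exonic bases on the same strand with LIPT2-AS1, which had 36 and 32 counts in DMSO and 113 and 125 in dBET1. POLD4 (ENSG00000175482, chr11:67350772-67356972, minus strand), the small accessory subunit that is known to be degraded after DNA damage, went the other way, from 472 and 456 counts in DMSO to 1265 and 1266 counts in dBET1. In CPM these were 14.5 and 16.2 in DMSO and 42.1 and 41.5 in dBET1, with no overlap (log2 fold change 1.45, standard error 0.112, edgeR adjusted p = 4.17e-05). POLD4 was the only one of the 50 genes that rose past the fold limit. Its exons share 650 bases with a readthrough gene that had at most 3 counts in any library. POLD4 was 0.108 and 0.101 of POLD1 in DMSO and 0.421 and 0.386 of it in dBET1 (TPM), a 3.85-fold higher ratio. POLD2 went from 39.0% and 37.3% of the summed TPM of the complex to 23.3% and 23.1%, while POLD4 went from 5.22% and 5.23% to 20.7% and 19.8%. These shares depend on the length used: with canonical transcripts POLD2, not POLD1, had the largest share, 68.4% and 66.8% in DMSO and 49.6% and 49.3% in dBET1, and POLD4 had 3.32% and 3.40% in DMSO and 15.9% and 15.4% in dBET1.

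In polymerase epsilon the catalytic and accessory subunits also separated. POLE, the catalytic subunit, had 263 and 281 CPM in DMSO and 264 and 281 CPM in dBET1, and its log2 fold change was 0.00 (standard error 0.0752, edgeR adjusted p = 0.973). POLE2 (ENSG00000100479, chr14:49643555-49688422, minus strand), its second subunit, had 41.3 and 37.3 CPM and 16.5 and 17.2 CPM (log2 fold change -1.22, standard error 0.112, edgeR adjusted p = 8.53e-05). POLE3, a histone-fold subunit that also serves in chromatin remodeling, fell (log2 fold change -0.82, standard error 0.0797, edgeR adjusted p = 1.15e-04). The ratio of POLE to POLD1 in TPM was 0.485 and 0.434 in DMSO and 0.651 and 0.647 in dBET1. POLE passed as higher under total-count scaling (0.21, edgeR adjusted p = 0.0379), where POLE2 and POLD2 still fell.

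**Figure D4:**
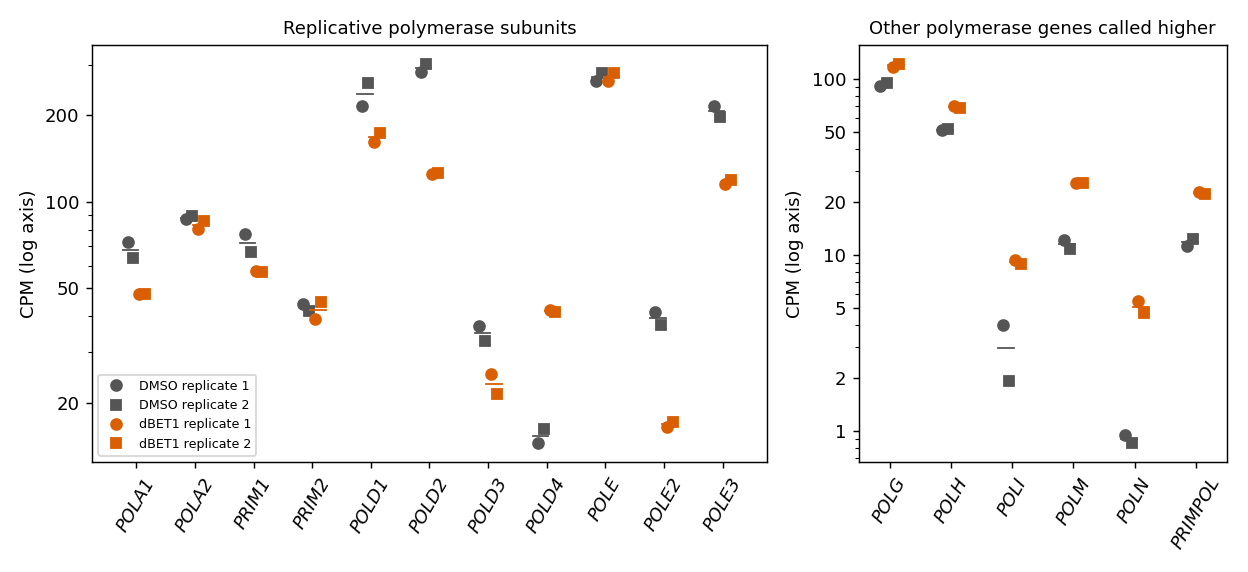
CPM on a log axis in each of the 4 libraries for the subunits of polymerases alpha-primase, delta and epsilon (left) and for the other DNA polymerase genes that rose (right); horizontal lines are group means. POLD4 is the replicative subunit whose dBET1 libraries lie above its DMSO libraries, POLD2 and POLE2 show the reverse, and the groups of POLE and PRIM2 overlap.

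PCNA (ENSG00000132646, chr20:5114953-5126626, minus strand) encodes the sliding clamp that holds polymerases, FEN1 and LIG1 on DNA. Its level was 477 and 468 CPM in DMSO and 232 and 233 CPM in dBET1, so that the groups lay far apart (log2 fold change -1.02, standard error 0.0674, edgeR adjusted p = 2.29e-05). Per length it was the most abundant of the 50 genes, at 1018 ± 59.3 TPM in DMSO and 539.8 ± 13.6 TPM in dBET1 (mean ± SD, n = 2), or 655 ± 42.2 and 366 ± 7.10 TPM with the canonical length. The clamp loader RFC opens the ring around a primer. Of its 5 genes, RFC2 (log2 fold change -0.66, standard error 0.0906, edgeR adjusted p = 6.28e-04), RFC3 (log2 fold change -0.82, standard error 0.112, edgeR adjusted p = 5.89e-04) and RFC4 (log2 fold change -0.58, standard error 0.0761, edgeR adjusted p = 4.94e-04) fell. Among abundant tested genes 42.9% were lower. RFC4 shares 18 exonic bases on the opposite strand with the far more abundant EIF4A2, which had 20580 and 16659 counts in DMSO and 20425 and 21646 in dBET1. RFC3, the lowest of the 5, had 80.9 and 66.8 CPM in DMSO and 43.1 and 40.5 CPM in dBET1. RFC1, the large subunit particular to the replication loader, had 114 and 96.8 CPM in DMSO and 107 and 109 CPM in dBET1, which overlap (log2 fold change 0.03, standard error 0.0955, edgeR adjusted p = 0.799). RFC5 did not pass either (log2 fold change -0.11, standard error 0.0883, edgeR adjusted p = 0.325). It shares 186 exonic bases on the opposite strand with WSB2, which had 1892 and 1673 counts in DMSO and 1534 and 1644 in dBET1. If strand was not used, the value of RFC5 is uncertain. Without DMSO replicate 2, RFC5 passed as lower (-0.20, edgeR adjusted p = 0.0426).

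RPA covers single-stranded DNA as a trimer. RPA2, the subunit that is phosphorylated in S phase and after damage, had 75.7 and 74.8 CPM in DMSO and 41.5 and 44.8 CPM in dBET1 (log2 fold change -0.80, standard error 0.0874, edgeR adjusted p = 2.00e-04). RPA1, the large DNA-binding subunit, was called lower by a small margin (log2 fold change -0.22, standard error 0.0735, edgeR adjusted p = 0.0352). RPA3, the smallest, had 63.3 and 70.8 CPM in DMSO and 66.6 and 64.0 CPM in dBET1, which overlap (log2 fold change -0.04, standard error 0.0914, edgeR adjusted p = 0.742). On the opposite strand RPA1 shares 175 exonic bases with SMYD4 and RPA3 shares 118 with UMAD1. If strand was not used, the values of RPA1 and RPA3 are uncertain. RPA2 made up 44.7% and 43.5% of the summed TPM of the trimer in DMSO and 32.0% and 34.6% in dBET1.

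The genes that finish lagging-strand fragments changed in both directions. FEN1, the nuclease that removes displaced primer ends, had 314 and 326 CPM in DMSO and 207 and 211 CPM in dBET1 (log2 fold change -0.61, standard error 0.0690, edgeR adjusted p = 2.28e-04); it shares 49 exonic bases on the same strand with FADS2. LIG1, the ligase that seals the nick, was called lower (log2 fold change -0.21, standard error 0.0754, edgeR adjusted p = 0.0447). DNA2, the nuclease-helicase that trims long flaps, had 41.9 and 41.0 CPM in DMSO and 50.2 and 48.7 CPM in dBET1 and was called higher (log2 fold change 0.26, standard error 0.0876, edgeR adjusted p = 0.0386). The calls for RPA1, LIG1 and DNA2 did not hold with the replicate number as a block (edgeR adjusted p = 0.0657, 0.0814 and 0.0565), nor without either dBET1 library, and the DNA2 call was also lost without DMSO replicate 2. Under total-count scaling and with at least 10 counts in every library the RPA1 and LIG1 calls were lost as well, and the DNA2 call was lost with DESeq2 and with no filter.

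Genes that work beside the machinery were examined in 4 lists drawn up by function. Of 24 fork partners and regulators, 12 fell and 1 rose, with a median log2 fold change of -0.19 that turned to 0.018 under total-count scaling; the shares to read such counts against are 42.9% lower and 22% higher among abundant tested genes, and 27.6% and 28% among all. CDC25A, the phosphatase that activates CDK2, had 112 and 116 CPM in DMSO and 50.01 and 47.6 CPM in dBET1 (log2 fold change -1.23, standard error 0.0818, edgeR adjusted p = 2.39e-05). POLE4, the histone-fold partner of POLE3, fell by a like amount (log2 fold change -1.13, standard error 0.127, edgeR adjusted p = 2.33e-04). CHTF8, a subunit of the alternative clamp loader, rose (log2 fold change 0.85, standard error 0.0706, edgeR adjusted p = 5.77e-05). Of 14 genes of replication-coupled chromatin assembly, 11 fell and 1 rose (42.9% and 22% among abundant genes), with a median of -0.61. SSRP1, a subunit of the histone chaperone FACT, had 644 and 642 CPM and 268 and 279 CPM (log2 fold change -1.23, standard error 0.0683, edgeR adjusted p = 1.33e-05). NASP, the chaperone of soluble H3-H4, fell (log2 fold change -1.002, standard error 0.0686, edgeR adjusted p = 2.66e-05), whereas ASF1B, another H3-H4 chaperone, rose (log2 fold change 0.75, standard error 0.0769, edgeR adjusted p = 1.44e-04). The medians of all 4 lists can be read against -0.19 over the abundant genes and 0.05 over all tested genes.

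Of 11 genes of nucleotide supply, 6 fell and 2 rose, against 42.9% lower and 22% higher among abundant tested genes, with a median of -0.24. DUT, which removes dUTP from the pool, had 129 and 151 CPM in DMSO and 76.8 and 64.7 CPM in dBET1 (log2 fold change -0.98, standard error 0.114, edgeR adjusted p = 2.68e-04), and RRM1, the large subunit of ribonucleotide reductase, fell (log2 fold change -0.62, standard error 0.0884, edgeR adjusted p = 7.73e-04). The pair that rose were SAMHD1, which breaks down dNTPs (log2 fold change 0.68, standard error 0.114, edgeR adjusted p = 0.00167), and RRM2B, the p53-inducible small subunit of the reductase (log2 fold change 0.61, standard error 0.109, edgeR adjusted p = 0.00219). The DNA polymerases outside the replicative machinery had a median of 0.14 (-0.00016 without DMSO replicate 2). Of these 14 genes, 6 rose (POLG, POLH, POLI, POLM, POLN and PRIMPOL) while 1 fell (POLB), against 28% higher and 27.6% lower among all tested genes. On the opposite strand PRIMPOL shares 520 exonic bases with CENPU, POLG 458 with FANCI and POLH 261 with GTPBP2. CENPU had 2481 and 2124 counts in DMSO, against 367 and 346 for PRIMPOL. If strand was not used, the values of PRIMPOL, POLG and POLH are uncertain. POLI, a translesion polymerase, had 4.01 and 1.92 CPM in DMSO and 9.36 and 8.84 CPM in dBET1 (log2 fold change 1.61, standard error 0.323, edgeR adjusted p = 0.00392). POLN had 31 and 24 counts in DMSO and 163 and 143 counts in dBET1 (log2 fold change 2.48, standard error 0.272, edgeR adjusted p = 2.06e-04), but it shares 686 exonic bases on the same strand with HAUS3, which had 1261 and 1086 counts in DMSO and 1839 and 1930 in dBET1, so its value is uncertain. POLB, the main repair polymerase for single-base gaps, was called lower (log2 fold change -0.31, standard error 0.109, edgeR adjusted p = 0.0421), a call that held with DESeq2 size factors in edgeR and without DMSO replicate 2, and was lost under the 8 other alternatives run.

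**Figure D5:**
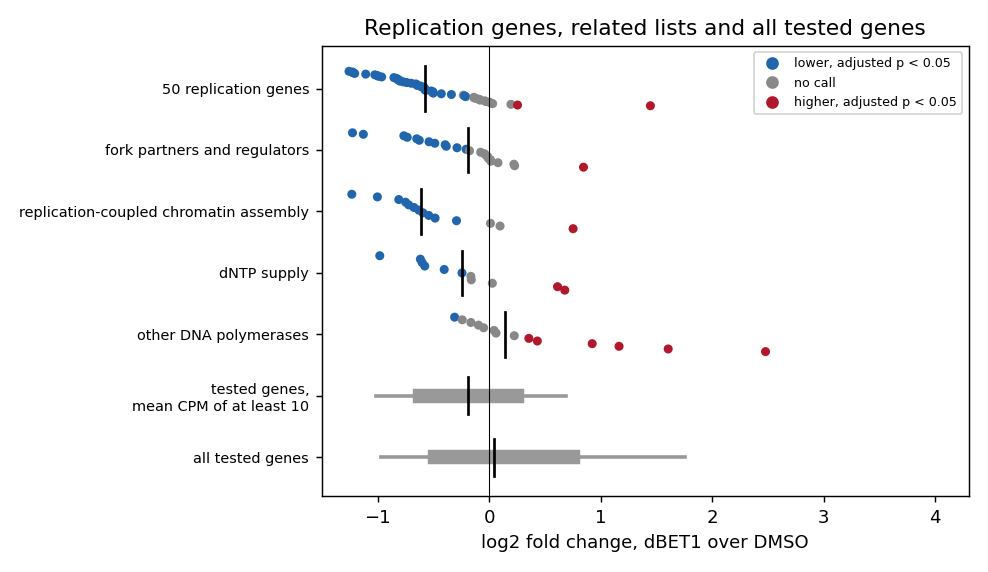
Log2 fold change (dBET1 over DMSO) of every tested gene in the replication list and in the 4 companion lists, with a black line at each median; colors mark the edgeR call at an adjusted p under 0.05. For the abundant and all tested genes, thick grey bars span the 25th to 75th percentiles and thin ones the 10th to 90th. The medians run from -0.61 for chromatin assembly and -0.58 for the replication genes to 0.14 for the other DNA polymerases, which was -0.00016 without DMSO replicate 2.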

How the data were processed

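Counts per gene were used as deposited. The authors aligned paired-end reads to hg38 with HISAT2 (2.2.0 per the labels), estimated abundances with StringTie, and deposited whole-number counts without normalization. How abundances became counts and whether strand was used are not given in the sources used here, so overlapping and antisense genes may share counts. Groups came from the labels and columns were matched by group name, time and replicate number, with the columns called NC taken as DMSO. The replication genes and companion lists were chosen with earlier results of these data known. Symbols, coordinates and exon lengths were from GENCODE 44 on hg38, in which 56105 identifiers were found; the rest held 2.57% of the counts. TPM used the length of all exons or, chosen after the data were seen, of the canonical transcript.

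In edgeR 4.0.16 with limma 3.58.1 (R 4.3.3), genes were filtered with filterByExpr, scaled with TMM factors and compared by the quasi-likelihood test, with the group as the sole term and p-values adjusted by the Benjamini-Hochberg method over 17971 genes. CPM used the TMM-scaled totals. The standard error was the log2 fold change over the square root of F. The biological coefficient of variation was 0.123. Replicates differed by more than counting error, with a chi-square per degree of freedom of 23.6 for DMSO and 8.14 for dBET1. Alternatives were edgeR with size factors from DESeq2 or with totals alone, DESeq2 1.42.0 itself, no filter, at least 10 counts in every library, a replicate block, each library left out and, for counts of calls, an adjusted p under 0.01. The steps were tested on simulated data. All 50 genes were described, with values by library for MCM2 to MCM7, PCNA, genes past both criteria or higher, and the extremes of each role; of each companion list, up to 2 called genes in each direction were named. Other values named were chosen after they were seen. Groups of 2 were too small for a test of outlying libraries. Promoter windows came from RefSeq (GRCh38.p14) and were searched with Python 3.11.15.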

Additional observations from a re-analysis of the deposited data

How the results depend on the processing

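Over 10 alternatives, 31 of the 36 lower replication genes kept their call in every one. The 5 that lost it in at least 1 were ORC3, WDHD1, PRIM1, RPA1 and LIG1. With all 4 libraries the number of lower genes ranged from 31 under total counts to 36. The number past both criteria downward went from 7 to 3 under total counts and to 5 with at least 10 counts in every library. It was 8 with DESeq2 or with its size factors in edgeR, and 9 with no filter. The number of higher genes went from 2 to 4 under total counts and to 1 with DESeq2, with no filter, with the replicate block and at an adjusted p under 0.01, and was 1 to 3 with a library left out (3 without DMSO replicate 1, 1 without any other). With the replicate number as a block 34 genes were lower and 1 was higher. Over all tested genes, replicate differences in the 2 groups had a correlation of 0.0023. That value cannot show whether libraries with the same number shared a culture or a batch, which the labels do not say.

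The median log2 fold change of the replication genes moved from -0.58 to -0.37 under total counts and to -0.51 with at least 10 counts in every library. In the same order the chromatin assembly median moved from -0.61 to -0.40 and -0.54, nucleotide supply from -0.24 to -0.034 and -0.17, fork partners from -0.19 to 0.018 and -0.12, and the other polymerases from 0.14 to 0.35 and 0.22. The last was 0.088 with no filter. With a library left out, nucleotide supply ranged from -0.35 to -0.19, fork partners from -0.28 to -0.19, and the other polymerases from -0.00016 without DMSO replicate 2 to 0.33 without DMSO replicate 1. The number of fork partners called higher went from 1 to 4 under total counts and 2 with at least 10 counts, and was 1 to 3 with a library left out (3 without DMSO replicate 1, 2 without DMSO replicate 2). The number of other polymerases called lower went from 1 to 0 with total counts, DESeq2, no filter, at least 10 counts and the block, and was 0 to 3 with a library left out (3 without DMSO replicate 2, 2 without DMSO replicate 1, 0 without either dBET1 library).

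Of the replication genes 10 changed sign in some alternative, and none of these 10 had passed the test in the comparison as reported. Under total counts the values were 0.072 for CDC7, 0.079 for CDT1, 0.13 for ORC6, 0.12 for POLA2, 0.18 for PRIM2, 0.10 for RFC5 and 0.17 for RPA3. With DESeq2 size factors in edgeR they were -0.0015 for ORC4 and -0.012 for POLE. With DESeq2 they were -0.022 for ORC4, -0.031 for POLE and -0.0039 for RFC1, and with no filter -0.041, -0.051 and -0.023. With at least 10 counts they were 0.041 for PRIM2 and 0.032 for RPA3. With a library left out, the lowest and highest were -0.091 and 0.066 for ORC4, -0.24 and 0.046 for ORC6, -0.071 and 0.044 for POLE, -0.15 and 0.061 for PRIM2, -0.11 and 0.13 for RFC1 and -0.14 and 0.012 for RPA3. The cause of these changes was not tested. All 50 genes had a mean of at least 10 CPM, and each error rests on 2 libraries in a group; the limits set by depth and by the number of libraries were not separated.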

Other observations

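Across the 50 replication genes, those with a higher level had lower log2 fold changes (Pearson r = -0.42 and Spearman rho = -0.43 with the log2 mean TPM). Over 9239 abundant tested genes with a length the same measures were -0.27 and -0.34. These are descriptions across genes of the same 4 libraries, and genes are not independent replicates. PCNA, at the top of the levels, and MCM3, MCM7, CDC45 and POLD2 fell past both criteria, whereas POLD4, among the lower levels at 15.2 ± 0.541 TPM in DMSO, rose to 44.6 ± 0.403 TPM. POLE2 is an exception among the genes that fell most, at 40.4 ± 4.76 TPM in DMSO and 18.7 ± 0.909 TPM in dBET1.

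The lymphoid markers summed to 30.0 and 33.9 CPM in DMSO and to 12.9 and 13.1 CPM in dBET1.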
